A study of Homo sapiens with 4 samples.

Results

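The ATP-binding cassette (ABC) genes were examined in TAE684-resistant Kelly cells carrying a hairpin against BORIS. Members were all genes whose annotated symbol was ABCA, ABCB, ABCC, ABCD, ABCE, ABCF or ABCG followed by a number, read on probe sets that name a single gene. They came to 42 of the 18244 genes on the array, with 125 such probe sets between them, and each was read on its brightest probe set by the mean of the 4 arrays. Kelly cells are an established line from a human neuroblastoma and carry MYCN amplification. The 2 groups were shBORIS, 2 arrays from cells carrying a hairpin against BORIS, and shLUC, 2 arrays from cells carrying a hairpin against luciferase as the control. Both groups were resistant to TAE684, which inhibits the kinase ALK, and were kept in it at 1 µM. Both were exposed to virus for 24 h and selected in puromycin for 48 h before RNA was taken. BORIS is the product of CTCFL, a paralog of CTCF. The labels name 1 hairpin against BORIS, so effects of that hairpin on other genes cannot be told apart from effects of less BORIS. The labels call the 2 arrays of a group biological duplicates. The p-values rest on the spread between duplicates pooled across genes, not on that of each gene alone.

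ABC proteins bind and hydrolyse ATP, and most of them use it to move a substrate across a membrane. Subfamilies A and G carry lipids and sterols, several members of B, C and G pump drugs and conjugates out of the cell, others of B sit in mitochondria or lysosomes, and D proteins serve peroxisomes and lysosomes. E and F proteins lack membrane domains and act on the ribosome and on translation. In neuroblastoma the family is best known for ABCC1 and ABCC4, whose transcripts follow MYCN in tumours, and for resistance to chemotherapy.

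The promoters of 5 members that changed relative to the median gene are printed here so that lower members and members that rose can be set side by side. They are RefSeq sequences of GRCh38.p14 from 250 bases before to 50 bases after the gene's start, 300 bases each, on the gene's own strand. Capitals mark CACGTG, the E-box bound by MYC proteins, or AGGGGGC, the middle of the CTCF recognition sequence, on either strand, and no marked sites overlap. ABCA13 (chr7:48171208-48171507, plus strand) and ABCA3 (chr16:2340679-2340978, minus strand) were lower in shBORIS cells. ABCD3 (chr1:94418139-94418438, plus strand), ABCE1 (chr4:145098061-145098360, plus strand) and ABCF1 (chr6:30571192-30571491, plus strand) rose.
ABCA13: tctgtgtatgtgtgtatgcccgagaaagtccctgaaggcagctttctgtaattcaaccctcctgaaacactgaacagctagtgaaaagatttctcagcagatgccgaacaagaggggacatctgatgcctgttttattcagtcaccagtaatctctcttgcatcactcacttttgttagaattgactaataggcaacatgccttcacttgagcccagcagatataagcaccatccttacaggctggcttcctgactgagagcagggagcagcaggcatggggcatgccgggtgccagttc
ABCA3: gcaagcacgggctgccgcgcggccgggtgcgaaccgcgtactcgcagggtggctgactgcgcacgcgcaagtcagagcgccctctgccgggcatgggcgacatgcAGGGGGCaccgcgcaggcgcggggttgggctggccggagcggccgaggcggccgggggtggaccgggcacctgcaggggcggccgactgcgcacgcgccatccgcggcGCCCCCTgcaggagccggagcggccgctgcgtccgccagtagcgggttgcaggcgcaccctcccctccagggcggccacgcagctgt
ABCD3: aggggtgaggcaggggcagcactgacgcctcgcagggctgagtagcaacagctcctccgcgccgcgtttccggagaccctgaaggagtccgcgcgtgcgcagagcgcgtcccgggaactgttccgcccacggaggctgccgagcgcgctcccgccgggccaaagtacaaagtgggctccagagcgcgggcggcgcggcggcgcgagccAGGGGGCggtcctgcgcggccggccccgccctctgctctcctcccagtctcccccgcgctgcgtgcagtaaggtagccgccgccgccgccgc
ABCE1: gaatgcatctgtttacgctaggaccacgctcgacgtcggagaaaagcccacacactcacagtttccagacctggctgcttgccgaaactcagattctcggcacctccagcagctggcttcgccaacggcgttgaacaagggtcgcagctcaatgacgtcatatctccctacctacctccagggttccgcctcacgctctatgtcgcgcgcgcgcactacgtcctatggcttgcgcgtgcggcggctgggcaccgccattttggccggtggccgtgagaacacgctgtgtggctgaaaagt
ABCF1: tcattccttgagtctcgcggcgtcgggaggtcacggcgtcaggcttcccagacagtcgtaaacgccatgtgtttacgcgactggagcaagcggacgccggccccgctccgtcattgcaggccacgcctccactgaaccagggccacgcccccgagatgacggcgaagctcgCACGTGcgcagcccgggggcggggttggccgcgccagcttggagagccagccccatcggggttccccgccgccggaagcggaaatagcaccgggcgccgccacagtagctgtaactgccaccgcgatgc
Only 2 of the 7 members that fell are printed, and ABCA13 was bright enough to test only through shLUC cells. The promoters of these 2 were unlike in composition, at 48.3% G and C for ABCA13 and 78.0% for ABCA3. The median over all 35114 promoters of this length in the table was 58.7%. ABCA3 held AGGGGGC at 2 places and ABCA13 held neither motif. Of falling members not printed, ABCB8 held AGGGGGC at 2 places, and ABCA2 and ABCA7 held neither motif. Among the 3 printed that rose, ABCD3 held AGGGGGC once, ABCF1 held CACGTG once and ABCE1 held neither. Promoters were available for 33 of the 42 members and 18 of the 21 tested. The tested members without one were ABCG1 and ABCC1, which fell against the median gene, and ABCC8, which rose. CACGTG was in at least 1 promoter of 7 members and in 8 of the 50 member promoters, against 7.26% of all promoters. AGGGGGC was in a promoter of 5 members and in 5 of the 50, against 14.4% of all. The longer CTCF consensus was in 0 of the 50 and in 0.0655% of all. These are matches of letters only, and some members have several promoters, which can overlap.

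The arrays carried other differences that bear on every member. CTCFL read 701 and 737 in shBORIS cells, against 3563 and 3376 in shLUC cells, so the targeted transcript was lower in the cells labelled shBORIS (log2 -2.25 as deposited). Of 6 adrenergic neuroblastoma markers 5 had a probe set, and these read between 629 and 6272 on every array. Of 12 markers of Schwann cells, fibroblasts, endothelium and immune cells with a probe set, 8 lay under the filter on all arrays. The summed intensity of the 12 was 921 to 984 in shBORIS cells against 1137 to 1160 in shLUC cells, and without the collagen gene COL1A1 it was 469 and 469 against 408 and 381. The part of these markers in the results was not tested. In such bulk RNA, fewer cells of a type and less RNA per cell cannot be told apart. The median of the genes tested was higher by 0.48 on the log2 scale in shBORIS cells as deposited, so each member was read as deposited and also on a relative scale, against the median gene, after each array was centred on the median of the genes tested.

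Of the 42 members, 21 were tested and 21 were too dim. A gene was tested where its mean intensity reached 62.2, the 40th percentile of all genes, and the 21 tested members were also above that level on both arrays of at least 1 hairpin. Background was first set at the 95th percentile of 17 tag control probe sets, but 4 of those controls had a mean intensity above 1000 and 0 members exceeded it. With the median tag control as background 20 members were above it, and with the mean of the 23 control probe sets named for background (BkGr) 15 were. Both of those levels were chosen after the controls had been seen. The 21 untested members had mean intensities of up to 56.4.

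Among tested members above the filter in both groups, the lipid transporters ABCG1 and ABCA3 had the largest differences against the median gene, and both fell. On the deposited scale the rises of ABCD3 and ABCC8 were larger than either fall. As deposited, 17 of the 21 tested members (81.0%) were higher and 4 (19.0%) were lower in shBORIS cells by limma at an adjusted p under 0.05. Across all genes tested, 77.2% were higher and 4.64% lower (81.9% in either direction). The 4 that were lower on the deposited scale were ABCA13, ABCG1, ABCA3 and ABCA7. Relative to the median gene, 4 members (19.0%) rose and 7 (33.3%) fell, where 30.3% of all genes rose and 28.8% fell (59.1% in either direction). The share of members higher as deposited and the share that fell against the median gene lay near those of all genes. The share lower as deposited was larger than that of all genes, and the share that rose against the median gene was smaller. ABCA13 and ABCA7 passed the filter only through shLUC cells, where they were high, so the choice of genes favoured their falls. Over the 19 members whose mean reached the filter in both groups, 17 were higher and 2 lower as deposited, and 4 rose and 5 fell against the median gene. Over the 10269 genes chosen in that way, 77.2% were higher and 4.32% lower as deposited, and 31.2% rose and 29.2% fell against the median gene. The median log2 difference of tested members was 0.32 as deposited, against 0.48 for all genes tested, and -0.16 against the median gene, against 0.00 for all genes. The groups did not overlap for 20 of the 21 tested members, where they did not overlap for 90.4% of all genes tested. After quantile normalization 4 members were higher and 8 lower, where 29.5% of all genes were higher and 25.9% lower. A test of 2 arrays against 2 by exact permutation cannot give a p under 0.333, so calls depend on limma's pooling of the spread across genes. For the deposited scale that pooling was complete (an infinite prior), and its smallest p-values should not be read literally.

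**Figure D1:**
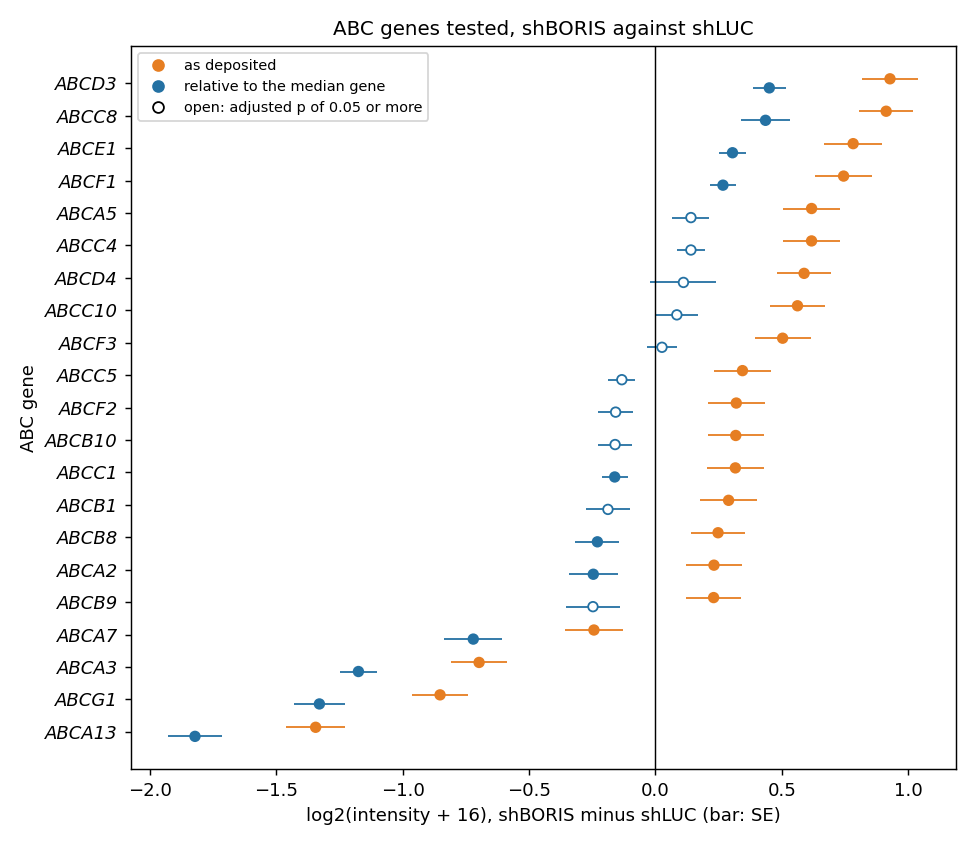
Log2 difference, shBORIS minus shLUC, of the 21 ABC genes tested, on log2(intensity + 16); points are limma estimates from 2 arrays a group, bars are their SE, and filled points have an adjusted p under 0.05. As deposited 17 genes lie right of 0, while ABCA13, ABCG1, ABCA3 and ABCA7 lie left of 0 on both scales.

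The drug efflux pumps were set apart as ABCB1, ABCB5, ABCC1, ABCC2, ABCC3, ABCC4, ABCC5, ABCC10, ABCC11 and ABCG2, a list made with earlier results of these data known. Of the 10, 5 were bright enough to test, and all 5 were higher as deposited, where 77.2% of all genes tested were. Relative to the median gene 0 rose, 1 fell and 4 did not pass, where 30.3% of all genes rose and 28.8% fell. The pumps had a median log2 difference of 0.34 as deposited and -0.13 against the median gene. The 5 too dim to test include ABCG2, ABCC3 and ABCC2, so a change in those pumps was not measurable here. MYCN, whose level ABCC1 and ABCC4 are known to follow, read 5727 and 6041 in shBORIS cells, against 5347 and 5280 in shLUC cells. MYCN differed by 0.15 as deposited (limma adjusted p = 0.11), and it fell by 0.33 against the median gene (limma adjusted p = 1.92e-04); its part in the values of the pumps was not tested.

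ABCC1 (MRP1) exports glutathione conjugates, anthracyclines and vinca alkaloids. It read 899.6 and 954 in shBORIS cells, against 769.6 and 713 in shLUC cells. Both shBORIS arrays lay above both shLUC arrays. The means were 927 ± 38.6 and 741 ± 39.8 (SD, n = 2 each), a log2 difference of 0.32 as deposited (SE 0.11; limma adjusted p = 0.00714). Relative to the median gene ABCC1 fell by 0.16 (SE 0.05; limma adjusted p = 0.0207), a call that was lost without any single array (adjusted p = 0.0511 to 0.0948). Leaving out shBORIS replicate 2 or shLUC replicate 2 also ended the deposited call (adjusted p = 0.0823 and 0.0888).

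ABCC4 (MRP4), which exports cyclic nucleotides, prostaglandins and nucleoside analogues, read 583 and 646 in shBORIS cells, against 405 and 384 in shLUC cells. The groups did not overlap, and the fold of the means was 1.56. The log2 difference of ABCC4 was 0.62 as deposited (SE 0.11; limma adjusted p = 1.47e-07) and 0.14 against the median gene, where it did not pass (SE 0.06; limma adjusted p = 0.0544). Its probe sets did not move alike. Of the 3 above the filter, the others read -0.02 and -0.27 against the median gene, and the mean of all 4 probe sets of ABCC4 read -0.17 (limma adjusted p = 0.0225).

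ABCC5 (MRP5), another exporter of cyclic nucleotides, read 1119 and 1244 in shBORIS cells, against 944 and 908 in shLUC cells. The shBORIS arrays were again both higher. The log2 difference was 0.34 as deposited (SE 0.11; limma adjusted p = 0.00296), -0.13 against the median gene (SE 0.05; limma adjusted p = 0.0522) and -0.26 after quantile normalization (limma adjusted p = 0.00309). The deposited call of ABCC5 was lost without shBORIS replicate 2 (limma adjusted p = 0.0772). Ranked by intensity into 10 equal bins, tested genes in the bin of ABCC5 had a median of 0.15 on the relative scale.

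ABCC10 (MRP7), an exporter of taxanes, read 141 and 161 in shBORIS cells, against 108 and 86.5 in shLUC cells. The groups were separate. Its log2 difference was 0.56 as deposited (SE 0.11; limma adjusted p = 5.13e-07) and 0.08 against the median gene (SE 0.08; limma adjusted p = 0.408). ABCB1 (MDR1, P-glycoprotein), the classical multidrug pump, read 93.6 and 95.02 in shBORIS cells, against 72.7 and 75.8 in shLUC cells. All of these values of ABCB1 lay close to the filter, and its 3 other probe sets had means of 26.7 to 42.3. The log2 difference of ABCB1 was 0.29 as deposited (SE 0.11; limma adjusted p = 0.0129) and -0.19 against the median gene (SE 0.09; limma adjusted p = 0.0911). In the dimmest of the 10 bins, to which ABCB1 belongs, the median was -0.17 on the same scale. Without shBORIS replicate 2 or shLUC replicate 1 the deposited call of ABCB1 was lost (limma adjusted p = 0.0597 and 0.0606).

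The other 5 pumps had mean intensities under the filter. ABCG2 (BCRP), which carries many kinase inhibitors, read 39.7 and 40.1 in shBORIS cells, against 38.2 and 33.7 in shLUC cells. ABCC3 (MRP3), which is reported to be held down by MYCN in neuroblastoma, read 34.3 and 34.1, against 33.7 and 36.5 in shLUC cells, and the groups overlapped. ABCC2 (MRP2) had its highest value, 73.2, on shBORIS replicate 2 and read 48.1 on the other shBORIS array, against 54.2 and 50.0 in shLUC cells. ABCB5 and ABCC11 read between 26.2 and 48.0 on all arrays.

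**Figure D2:**
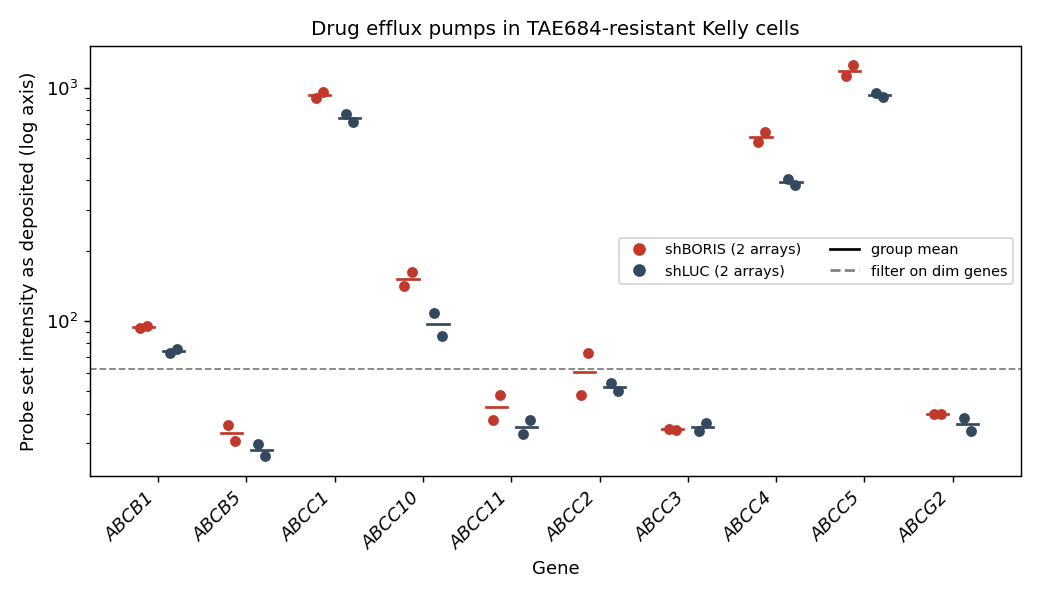
Deposited intensity, on a log axis, of the 10 drug efflux pumps, with 1 point per array, 2 arrays per hairpin, bars at the group means and a dashed line at the filter of 62.2. ABCB1, ABCC1, ABCC4, ABCC5 and ABCC10 lie above the line on all arrays, each with both shBORIS points above both shLUC points.

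Transporters of the A subfamily, which move phospholipids and sterols, had 12 genes on the array, of which 5 were tested. Relative to the median gene 4 fell and 0 rose, where 28.8% of all genes tested fell and 30.3% rose. As deposited 3 were lower and 2 higher, where 4.64% of all genes tested were lower and 77.2% higher. The filter bears on these counts, since it admitted ABCA13 and ABCA7 through shLUC cells and kept out ABCA10, which was higher in shBORIS cells. Of the 3 above the filter in both groups, ABCA3 and ABCA2 fell against the median gene. The gene that did not pass, ABCA5, read 0.14 against the median gene (SE 0.07; limma adjusted p = 0.124) and 0.23 without shLUC replicate 1 (limma adjusted p = 0.0249).

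ABCA13, one of the largest ABC proteins, read 32.6 and 28.6 in shBORIS cells, against 114 and 91.7 in shLUC cells. The shBORIS arrays were at the level of dim, untested genes and the shLUC arrays were above the filter. The means were 30.6 ± 2.78 in shBORIS cells and 103 ± 15.5 in shLUC cells (SD, n = 2 each). ABCA13 has 1 probe set, and its mean of 66.7 passed the filter only through shLUC cells, so a gene admitted in this way had to differ. The differences of -1.34 as deposited and -1.82 against the median gene are therefore given as a description, and their size is approximate because the shBORIS values are not above background.

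ABCA3, which loads lipids into the lamellar bodies of lung cells, read 214 and 257 in shBORIS cells, against 393 and 388 in shLUC cells. Both shBORIS arrays were lower, at 0.603 of the shLUC mean. It fell by 0.70 as deposited (SE 0.11; limma adjusted p = 9.85e-10) and read -1.17 against the median gene (SE 0.07; limma adjusted p = 1.34e-06). All 3 of its probe sets were above the filter and lower, between -1.17 and -0.74 against the median gene. Every alternative kept the direction and the call of ABCA3 on both scales.

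ABCA7, a phospholipid transporter with a known part in phagocytosis, read 64.6 and 52.1 in shBORIS cells, against 78.1 and 65.7 in shLUC cells. These ranges nearly touch, and the shBORIS mean of 58.3 lay under the filter, which ABCA7 passed only through shLUC cells. Its differences of -0.72 against the median gene and -0.24 as deposited are given as a description for that reason. The other probe set of ABCA7, under the filter, read -0.26 against the median gene and 0.21 as deposited, the opposite sign on that scale. The deposited difference no longer passed without shBORIS replicate 2 or shLUC replicate 1 or with no filter (limma adjusted p = 0.435, 0.338 and 0.0523). ABCA2, which handles sterols in lysosomes of brain cells, was at the edge of the threshold. It read 83.1 and 109 in shBORIS cells, against 80.1 and 77.5 in shLUC cells. ABCA2 was higher by 0.23 as deposited (SE 0.11; limma adjusted p = 0.0466), and it fell by 0.25 against the median gene (SE 0.10; limma adjusted p = 0.05 when rounded, just under the threshold). Without shBORIS replicate 1, shLUC replicate 1 or shLUC replicate 2 the relative call of ABCA2 was lost (limma adjusted p = 0.350, 0.0702 and 0.162). Its deposited call was lost without shBORIS replicate 2, shLUC replicate 1 or shLUC replicate 2 (limma adjusted p = 0.678, 0.0746 and 0.146), and after quantile normalization it read -0.11 (limma adjusted p = 0.365).

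ABCA5, found in late endosomes and lysosomes, read 399 and 455 in shBORIS cells, against 302 and 245 in shLUC cells, 0.62 higher as deposited (SE 0.11; limma adjusted p = 8.08e-08). It lies on chromosome 17 at the end of a run of 5 neighbouring A genes, in the order ABCA8, ABCA9, ABCA6, ABCA10 and ABCA5. Of these neighbours only ABCA5 was tested. ABCA10, singled out after its values were seen, read 61.1 and 80.7 in shBORIS cells, against 26.5 and 22.7 in shLUC cells. That separation was wide for a dim gene, but the mean of ABCA10 lay under the filter. In the fit with no filter ABCA10 was higher by 1.09 as deposited and by 0.73 against the median of all genes. Against the median of the genes tested, the same probe set read 0.61. Its next brightest probe set read 0.42 as deposited but -0.06 against that median, and the dimmer ones read -0.36 and -0.36. The rise of ABCA10 on the relative scale therefore rests on its brightest probe set. ABCA6, ABCA8 and ABCA9 read between 15.6 and 29.2 on all arrays.

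ABCG1, which passes cholesterol to high density lipoprotein, was the 1 gene tested among 4 sterol transporters of the G subfamily. It read 63.8 and 84.7 in shBORIS cells, against 163 and 131 in shLUC cells. The groups did not overlap, and the shBORIS mean was 0.506 of the shLUC mean. ABCG1 fell by 0.85 as deposited (SE 0.11; limma adjusted p = 5.71e-14) and read -1.33 against the median gene (SE 0.10; limma adjusted p = 4.22e-06). Its 4 probe sets above the filter read between -1.33 and -0.79 against the median gene, but 3 of them passed only through shLUC cells, so their sign is no independent support. Each alternative that tested ABCG1 kept the call on both scales. ABCA1, the partner of ABCG1 in sterol efflux, was too dim, with values of 32.8 and 33.2 in shBORIS cells and 25.2 and 34.7 in shLUC cells. ABCG4, ABCG5 and ABCG8 were also untested. ABCG5, read at 32.8 and 38.6 in shBORIS cells and 21.4 and 23.1 in shLUC cells, lay in the range of the dim probe sets.

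**Figure D3:**
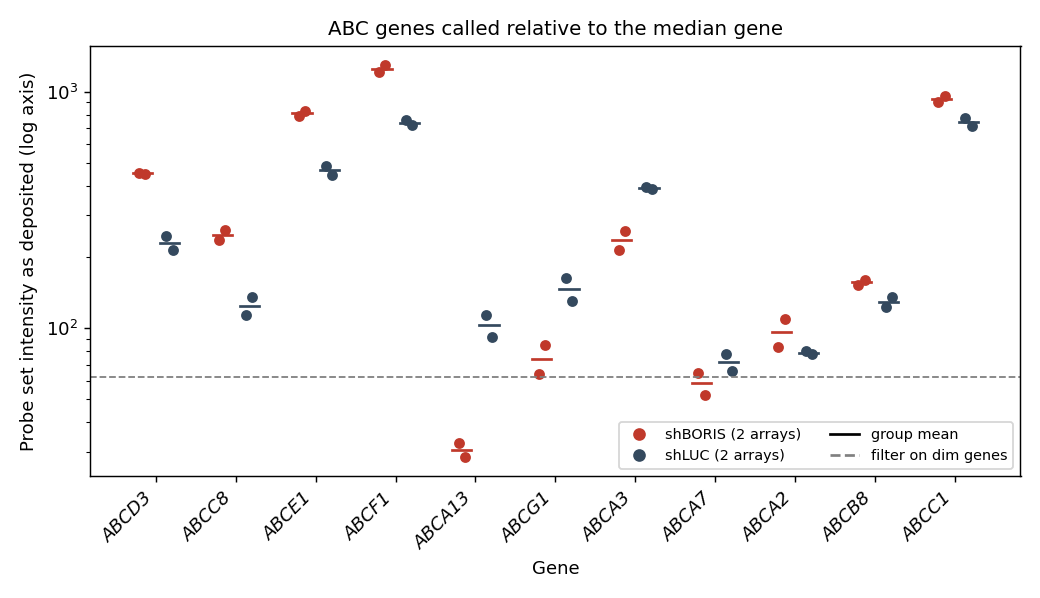
Deposited intensity, on a log axis, of the 4 ABC genes that rose and the 7 that fell against the median gene, with 1 point per array, 2 arrays per hairpin, bars at the group means and a dashed line at the filter of 62.2. ABCA13, ABCG1, ABCA3 and ABCA7 are lower in shBORIS cells as drawn, while ABCA2, ABCB8 and ABCC1 are higher as drawn and lower only against the median gene.

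ABCC8 and ABCD3 had the largest rises among tested members. In the fit with no filter, centred on the median of all genes, they read 0.55 and 0.57. The brightest probe set of the untested ABCA10 read 0.73 in that fit. ABCC8 encodes SUR1, the sulfonylurea receptor that surrounds a potassium channel and gates it rather than carrying a substrate. It read 236 and 259 in shBORIS cells, against 113 and 135 in shLUC cells. Its mean was 1.99-fold that of shLUC cells, at 247 ± 16.4 against 124 ± 15.1 (SD, n = 2 each). ABCC8 rose by 0.91 as deposited (SE 0.11; limma adjusted p = 1.57e-16) and by 0.44 against the median gene (SE 0.10; limma adjusted p = 0.00348). Its other 2 probe sets over the filter read 0.13 and 0.39 against the median gene, but they passed only through shBORIS cells, so their sign is no independent support. The potassium channel subunits that SUR proteins surround did not rise with it on the relative scale. KCNJ11 fell by 0.25 against the median gene (limma adjusted p = 0.0202) and KCNJ8 fell by 0.47 (limma adjusted p = 4.62e-04), while as deposited KCNJ11 was higher by 0.23 (limma adjusted p = 0.0391) and KCNJ8 read 0.00 (limma adjusted p = 0.974). The other receptor, ABCC9, was under the filter at 15.3 to 20.2 on all arrays.

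ABCD3 (PMP70), which brings fatty acids into peroxisomes, read 453 and 449 in shBORIS cells, against 246 and 214 in shLUC cells. The shBORIS values were close together and well above the others, 1.96-fold by the means. It rose by 0.93 as deposited (SE 0.11; limma adjusted p = 6.00e-16) and by 0.45 against the median gene (SE 0.07; limma adjusted p = 2.20e-04). All 3 probe sets above the filter were higher, between 0.27 and 0.48 against the median gene. Averaged over all 5 probe sets, of which 2 lay under the filter, the relative difference of ABCD3 was 0.12 and did not pass (limma adjusted p = 0.125). ABCD4, which helps cobalamin out of the lysosome, read 240.4 and 299 in shBORIS cells, against 151 and 198 in shLUC cells. It was higher by 0.59 as deposited (SE 0.11; limma adjusted p = 1.29e-07), and against the median gene it read 0.11 (SE 0.13; limma adjusted p = 0.489). Leaving out shLUC replicate 2 raised the relative value of ABCD4 to 0.35 (limma adjusted p = 0.00794). ABCD2 was too dim to test.

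The E and F subfamilies were tested in full. All 4 were higher as deposited, with a median of 0.62, and against the median gene 2 rose and 0 fell, the median being 0.15. Over all genes tested 77.2% were higher as deposited, and 30.3% rose and 28.8% fell against the median gene. After quantile normalization 2 rose and 1, ABCF2, fell by 0.24 (limma adjusted p = 0.0232). ABCE1, which splits ribosomes after termination so that they can be used again, read 791 and 831 in shBORIS cells, against 486 and 444 in shLUC cells. It was 1.74-fold higher by the means, and the groups were far apart. It rose by 0.78 as deposited (SE 0.11; limma adjusted p = 3.25e-11) and by 0.31 against the median gene (SE 0.05; limma adjusted p = 7.74e-04). All 5 probe sets of ABCE1 were higher, between 0.05 and 0.36 against the median gene.

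ABCF1, which works with the initiation factor eIF2, read 1206 and 1289 in shBORIS cells, against 756 and 720.1 in shLUC cells. Both shBORIS arrays were clearly higher. It rose by 0.74 as deposited (SE 0.11; limma adjusted p = 1.53e-10) and by 0.27 against the median gene (SE 0.05; limma adjusted p = 0.00129). After quantile normalization ABCF1 read 0.14 (limma adjusted p = 0.0403) and ABCE1 read 0.19 (limma adjusted p = 0.0144). Tested genes in the intensity bin of ABCF1 had a median of 0.15 on the relative scale, and those in the bin of ABCE1 one of 0.13.

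ABCF3 read 375 and 392.4 in shBORIS cells, against 272 and 259.6 in shLUC cells. It was higher by 0.50 as deposited (SE 0.11; limma adjusted p = 1.13e-05) and read 0.03 against the median gene (SE 0.06; limma adjusted p = 0.727). The probe sets of ABCF2 disagreed in direction. Its brightest read 544 and 627 in shBORIS cells, against 456 and 473 in shLUC cells, 0.32 higher as deposited (SE 0.11; limma adjusted p = 0.00675) and -0.16 against the median gene (SE 0.07; limma adjusted p = 0.0733). A dimmer probe set of ABCF2 read 198 and 193 in shBORIS cells, against 330.0 and 316 in shLUC cells, which is -0.68 as deposited and -1.16 against the median gene. Another read -0.47 as deposited and the fourth 0.29, so the sign of ABCF2 depends on the probe set, and the deposited call was also lost without shBORIS replicate 2 (limma adjusted p = 0.179).

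Of 5 listed transporters of mitochondria and lysosomes in subfamily B, 3 had a probe set of their own and were tested. As deposited these rose less than the median gene did. ABCB8, ABCB10 and ABCB9 were all higher as deposited, with a median of 0.25, where 77.2% of all genes tested were higher. Against the median gene 1 fell and 0 rose, with a median of -0.23, where 28.8% of all genes tested fell and 30.3% rose. Tested genes in the intensity bins of ABCB8, ABCB10 and ABCB9 had medians of -0.06, 0.06 and -0.09 on the relative scale. ABCB8, a mitochondrial transporter tied to iron handling, read 153 and 159 in shBORIS cells, against 123 and 135 in shLUC cells. ABCB8 was higher by 0.25 as deposited (SE 0.11; limma adjusted p = 0.0265), and it fell by 0.23 against the median gene (SE 0.09; limma adjusted p = 0.0427). The relative call was lost without shBORIS replicate 1, shBORIS replicate 2 or shLUC replicate 2 (limma adjusted p = 0.0574, 0.103 and 0.318), and the mean of its probe sets read -0.04. The deposited call of ABCB8 was lost without shBORIS replicate 2 or shLUC replicate 1 (limma adjusted p = 0.121 and 0.183).

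ABCB10, which supports heme synthesis in mitochondria, read 305 and 361 in shBORIS cells, against 280.0 and 247 in shLUC cells. The lowest shBORIS array lay above the highest shLUC array. Its difference was 0.32 as deposited (SE 0.11; limma adjusted p = 0.0054) and -0.16 against the median gene (SE 0.07; limma adjusted p = 0.0696). Without shBORIS replicate 2 or shLUC replicate 2 the deposited call of ABCB10 was lost (limma adjusted p = 0.191 and 0.112), and without shBORIS replicate 2 the relative value was -0.23 and passed (limma adjusted p = 0.0314). ABCB9 (TAPL), a lysosomal peptide transporter, was the 1 tested member whose groups overlapped, with 93.2 and 125 in shBORIS cells and 102 and 79.4 in shLUC cells. It read 0.23 as deposited (SE 0.11; limma adjusted p = 0.0449), a call lost without shBORIS replicate 2 or shLUC replicate 2 (limma adjusted p = 0.776 and 0.597), and -0.25 against the median gene (SE 0.11; limma adjusted p = 0.0733). Without those same arrays the relative fall of ABCB9 passed, at -0.39 and -0.35 (limma adjusted p = 0.00634 and 0.0289).

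**Figure D4:**
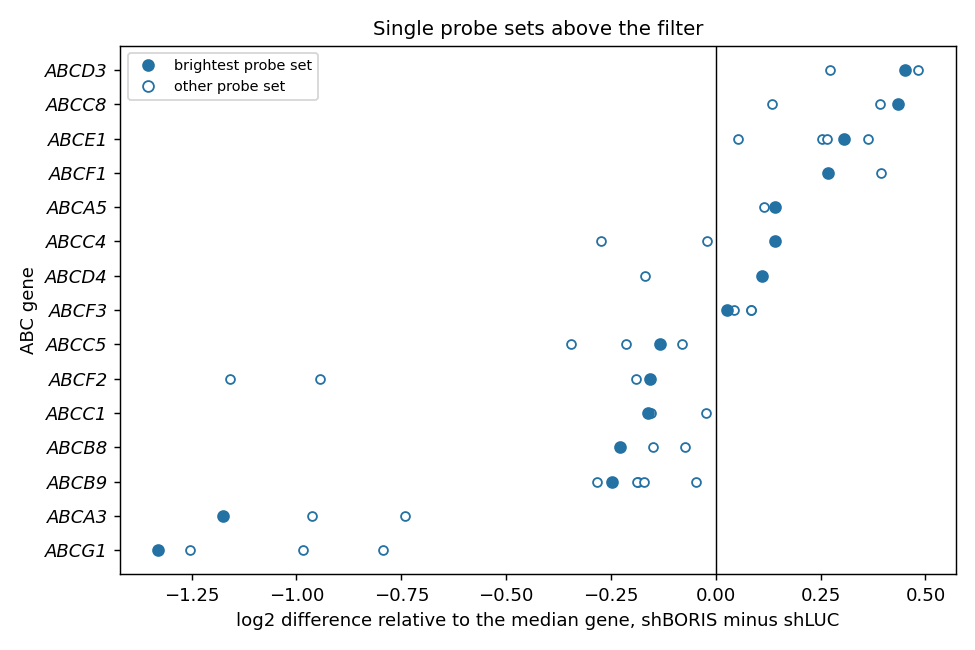
Log2 difference against the median gene, shBORIS minus shLUC, of each single probe set above the filter, for the 15 tested ABC genes with more than 1 such probe set; the filled point is the probe set that stands for the gene. Every probe set drawn for ABCA3, ABCD3, ABCE1 and ABCF1 has the sign of its gene, those of ABCC4 and ABCD4 do not, and ABCF2 spans -1.16 to -0.16.

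Partner and regulator genes of the family were read from lists made with earlier results of these data known. Of 55 listed, 50 had a probe set and 48 were tested. As deposited 39 were higher and 2 lower, with a median of 0.45, where 77.2% of all genes tested were higher and 4.64% lower. Relative to the median gene 10 rose and 18 fell, and their median was -0.03, against the 30.3% and 28.8% of all genes. Among 7 tested genes of LXR and sterol control, which governs ABCA1 and ABCG1, 0 rose and 2 fell. As deposited 5 of the 7 were higher and 0 lower. SREBF2, the master regulator of cholesterol synthesis, fell by 0.48 (limma adjusted p = 4.64e-05) and NPC2, a lysosomal cholesterol carrier, fell by 0.36 (limma adjusted p = 4.91e-04). SREBF2 read 606 and 663 in shBORIS cells, against 649.8 and 622 in shLUC cells, so its groups overlapped as deposited. NPC2 read 0.12 as deposited and did not pass (limma adjusted p = 0.325).

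The falls and rises of partner genes named here are against the median gene. Over all genes tested 30.3% rose and 28.8% fell on that scale, and 77.2% were higher and 4.64% lower as deposited. Of 6 tested genes of xenobiotic control 2 rose and 2 fell, and as deposited 4 were higher and 2 lower. KEAP1, which restrains NRF2, rose by 0.51 (limma adjusted p = 4.97e-05). The dioxin receptor AHR and the vault protein MVP fell, both to -0.72 (limma adjusted p = 3.27e-04 and 5.99e-05). Of the 5 genes that supply glutathione, the co-substrate of ABCC1, 1 rose and 2 fell, while all 5 were higher as deposited. The falls were the 2 subunits of glutamate-cysteine ligase, GCLC at -0.25 and GCLM at -0.22, which were higher as deposited, by 0.23 and 0.26 (limma adjusted p = 0.0406 and 0.0291). The conjugating enzyme GSTP1 rose by 0.21.

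The counts of the next 4 lists stand beside the same shares, 30.3% risen and 28.8% fallen, and 77.2% higher and 4.64% lower as deposited. Among 13 tested genes of mitochondrial iron-sulfur clusters and heme 4 rose and 3 fell, and their median was 0.02. As deposited 12 of the 13 were higher and 0 lower. The cysteine desulfurase NFS1 rose by 0.41, the heme enzyme CPOX by 0.33, and the iron carrier SLC25A37 fell by 0.28. Of 5 peroxisomal genes, the oxidation enzyme HSD17B4 rose by 0.60 (limma adjusted p = 9.02e-06), and PEX19, the carrier that inserts ABCD3 into the membrane, fell by 0.58 (limma adjusted p = 2.08e-05). PEX3, its receptor, fell by 0.18 against the median gene but was higher by 0.30 as deposited (limma adjusted p = 0.00696). As deposited 4 of the 5 were higher and 0 lower. The 2 lysosomal cobalamin genes gave 1 fall, LMBRD1 at -0.37, and 1 value that did not pass, MMACHC at 0.05. Of 8 ribosome recycling genes 2 rose and 4 fell, while 7 were higher and 0 lower as deposited. DENR, which releases the small subunit, rose by 0.55 (limma adjusted p = 1.21e-05), the stress kinase EIF2AK4 rose by 0.39, and HBS1L, which rescues stalled ribosomes, fell by 0.46.

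The remaining members were not tested. The bile transporters ABCB4 and ABCB11 read 15.4 to 40.4 on all arrays. ABCC12 read 24.5 to 31.7, and ABCC13, annotated as a transcribed pseudogene, read 26.0 to 36.9. ABCA4 and ABCA12 read 21.0 to 38.6. At these intensities a change in RNA level would be largely hidden by the background, so these genes are described as not measurable and not as unchanged.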

How the data were processed

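RNA of 2 shBORIS and 2 shLUC samples, 100 ng each with ERCC spike-in transcripts, was hybridised to Affymetrix PrimeView arrays. The deposited values are linear intensities of 49495 probe sets, and the submitters' processing notes name MAS5, R 3.1.3 and affy. Of these probe sets 45278 name a single gene, 1333 name several, 2682 have no annotation here and 202 are controls. Symbols were updated through Entrez IDs. The brightest probe set stood for a gene, and the 10946 genes with a mean intensity of at least 62.2 were tested on log2(intensity + 16) with limma 3.58.1 in R 4.3.3 and Benjamini-Hochberg adjustment over all of them, as deposited and after each array was centred on the median of those genes. The test was run on simulated data with known changes first. Arrays have no read depth; their number limits the precision. Genes that share probe sets, and probe sets that may match several transcripts, are uncertain. ABCB6 was read only on probe sets shared with ATG9A and is left out.

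Members and lists were chosen with earlier results of these data known. Every ABC gene above background could be named. Values of every array were planned for pumps above background and for up to 8 rises and 8 falls relative to the median gene. They are given here for all 21 tested members, and for some genes that are not members, SREBF2 and TAP2 among them. Other genes below the filter named with values were chosen after these were seen. At most 3 partner genes of a list are named, by the smallest p relative to the median gene. Background set from the tag controls gave 0 members, so the 40th percentile of all genes was used instead. Alternatives were pseudocounts of 1 and 64, no filter, a filter at the 60th percentile, the mean of probe sets, quantile normalization, centring on ERCC, the replicate number as a block, and leaving out each array. Counts over genes above the filter in both groups were added after the data were seen. Replicate numbers were not treated as pairing the samples (correlation of same-numbered deviations 0.098 across genes, which are not independent replicates).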

Additional observations from a re-analysis of the deposited data

How the results depend on the processing

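Directions on the deposited scale turned for some members under quantile normalization but for 0 under centring on ERCC. With ERCC centring 19 tested members kept their call and direction, and 2 kept the direction but lost the call. The ERCC medians were 25.5 and 25.8 in shBORIS cells, against 24.8 and 24.4 in shLUC cells. Of the 17 tested members higher as deposited, 4 were higher after quantile normalization, 10 with the replicate number as a block, and 9 to 17 when 1 array was left out, with 9 without shBORIS replicate 2. The 4 lower became 8 after quantile normalization and 1 with the filter at the 60th percentile, which tested 13 members. Relative to the median gene, the 4 higher became 7 with no filter, and the 7 lower became 4 to 8 when 1 array was left out, with 4 without shBORIS replicate 1. With no filter the falls of ABCA2, ABCB8 and ABCC1 no longer passed on that scale (limma adjusted p = 0.252, 0.261 and 0.467). In the same fit ABCA5 and ABCC4 passed as rises (limma adjusted p = 0.0147 and 0.00353). With the replicate block 5 were higher and 9 lower relative to the median gene. After quantile normalization the deposited sign turned for ABCA2 (-0.11), ABCB1 (-0.043), ABCB10 (-0.19), ABCB8 (-0.16), ABCB9 (-0.13), ABCC1 (-0.29), ABCC5 (-0.26), ABCF2 (-0.24) and ABCF3 (-0.018). With the mean of probe sets ABCF2 read -0.14 as deposited and ABCC4 -0.17 relative to the median gene. The cause was not tested. The count of members above background was 0 by the 95th percentile of the tag controls, 21 by the 40th percentile of all genes, 20 by the median tag control and 15 by the mean BkGr control. ABCG1, ABCA3, ABCC8, ABCE1 and ABCF1 kept their call and direction on both scales under each alternative that tested them. Signal near background limits ABCA13, ABCA7 and ABCB1, and also the size of the fall of ABCG1. The 2 arrays a group limit all members.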

Other observations

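Probe sets outside the member rule gave these values. ABCB6 and ATG9A share probe sets; the brighter of them read 269.9 and 295.9 in shBORIS cells, against 323.9 and 290.9 in shLUC cells, a log2 difference of -0.11 as deposited. The pseudogene ABCA11P read 49.9 and 35.7 in shBORIS cells, against 25.9 and 16.8 in shLUC cells, all under the filter. TAP2, an ABC protein of antigen processing with another kind of symbol, read 92.1 and 97.9 in shBORIS cells, against 101 and 100.1 in shLUC cells. TAP2 fell by 0.55 relative to the median gene (limma adjusted p = 2.11e-04) and read -0.07 as deposited (limma adjusted p = 0.553). CTCF, the paralog of CTCFL, read 484 and 519 in shBORIS cells, against 251 and 228 in shLUC cells, and rose by 0.54 relative to the median gene (limma adjusted p = 3.29e-05).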
